A study of Mus musculus with 4 samples.

Results

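Fibrillar collagen is modified, folded and crosslinked by enzymes and chaperones before and after it leaves the cell. The transcripts of 10 such genes were followed here across the cells of the mouse Achilles tendon: the lysyl oxidases Lox, Loxl1, Loxl2 and Loxl3, the prolyl 4-hydroxylase subunits P4ha1 and P4ha2, the lysyl hydroxylases Plod1 and Plod2, the collagen chaperone Serpinh1 and the procollagen proteinase enhancer Pcolce. They were chosen by name for their roles and make up 10 of the 15746 genes in the count table. All 10 were detected.

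The study set out to catalogue the cell populations of tendon with droplet-based RNA sequencing. All 4 libraries, numbered 1 to 4, form 1 group: Achilles tendons of male C57Bl/6 mice aged 6 weeks, with no transgene or treatment named. Whether each library holds the cells of 1 mouse or of several is not stated, so p-values here measure the spread between these libraries, which may in part be technical. The authors gave each of 1191 cells to 1 of 13 populations: tendon fibroblasts 1 to 3, bursal fibroblasts, pericytes, endothelial cells 1 to 3, nerve cells 1 to 3, immune cells and red blood cells.

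Procollagen chains are modified while they enter the endoplasmic reticulum. Prolyl 4-hydroxylases hydroxylate prolines, which makes the triple helix stable at body temperature, and lysyl hydroxylases hydroxylate lysines, which sets the kind of crosslink that can form later; the chaperone encoded by Serpinh1, also called HSP47, binds the folded triple helix and accompanies it out of the endoplasmic reticulum. Outside the cell, proteinases remove the propeptides, helped by the enhancer protein that Pcolce encodes, and lysyl oxidases convert lysines to the aldehydes from which crosslinks form. In tendon, these crosslinks join the molecules of the collagen fibrils that carry load.

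Upstream sequences are shown for a prolyl hydroxylase gene and for the chaperone gene, because P4ha1 differed between the 2 main tendon fibroblast populations and Serpinh1 was the most widely expressed of the 10 genes. Each line gives, from 5′ to 3′ on the gene's own strand, the 250 bases just before the annotated transcription start (RefSeq promoter windows on GRCm38.p6). P4ha1 lies at chr10:59323296-59373304 on the plus strand and its window at chr10:59323046-59323295. Serpinh1 lies at chr7:99345376-99353239 on the minus strand and its window at chr7:99353240-99353489. Capitals mark matches, on either strand, to ACGTG or GCGTG, the 2 forms of the hypoxia response core, and to the GC box GGGCGG.
P4ha1: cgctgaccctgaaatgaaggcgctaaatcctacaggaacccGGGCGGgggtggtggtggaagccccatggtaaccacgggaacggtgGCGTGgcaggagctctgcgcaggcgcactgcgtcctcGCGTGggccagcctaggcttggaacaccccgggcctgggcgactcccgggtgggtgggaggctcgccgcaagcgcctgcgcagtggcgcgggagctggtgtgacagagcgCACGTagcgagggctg
Serpinh1: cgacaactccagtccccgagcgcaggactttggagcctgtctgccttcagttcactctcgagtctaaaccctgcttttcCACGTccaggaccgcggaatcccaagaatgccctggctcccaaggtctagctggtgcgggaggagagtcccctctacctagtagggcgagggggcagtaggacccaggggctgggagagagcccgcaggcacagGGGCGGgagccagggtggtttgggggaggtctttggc

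The P4ha1 window held 1 match to ACGTG, 11 bases before the start, 2 matches to GCGTG and 1 to the GC box. The Serpinh1 window held 1 match to ACGTG, 166 bases before the start, and 1 to the GC box. None of these matches overlapped another. Such letters are common: ACGTG occurred in 16.6%, GCGTG in 28.2% and GGGCGG in 32.7% of 32851 promoter windows of the same length. TATAAA and CCAAT, present in 12.4% and 33.8% of windows, were searched too and were in neither of the 2 sequences. A match describes letters, not a bound site.

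The libraries held 580, 246, 256 and 109 cells with 5603366, 2252390, 2269014 and 1375111 unique molecular identifiers (UMIs), which count each captured transcript once. Library 2 stood apart in its makeup, with 14 tendon fibroblasts against 172, 162 and 32 in libraries 1, 3 and 4. No cell barcode was shared between libraries. Markers were checked against the authors' names: all 9 tendon fibroblast markers, such as Tnmd, Scx and Mkx, were highest in tendon fibroblasts, and of the other lists only the lymphatic list had a marker that peaked elsewhere (Lyve1, in immune cells). Counts were summed per library and population where at least 5 cells were present, giving 39 sums, and a level is given as CPM, the gene's UMIs per 1000000 UMIs of the sum, as mean ± SD over libraries. UMIs are counted at the transcript's 3′ end, so levels do not scale with gene length.

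The 10 genes together took the most transcripts in tendon fibroblasts. Their summed level was 4618 ± 629 CPM (SD, n = 4) in tendon fibroblasts 1, 3024 ± 344 (n = 3) in tendon fibroblasts 2 and 2892 in tendon fibroblasts 3, which reached 5 cells only in library 1. Bursal fibroblasts followed with 1790 ± 296 CPM (n = 3) and nerve cells 1 with 1616 ± 314 (n = 3). Pericytes had 768 ± 160 CPM and endothelial cells 1 673 ± 116 (n = 4 each), immune cells 171 ± 18.7 (n = 3), and red blood cells 5.93 ± 6.96 (n = 4). Each gene had its own order over the populations, as the plot of levels shows.

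**Figure D1:**
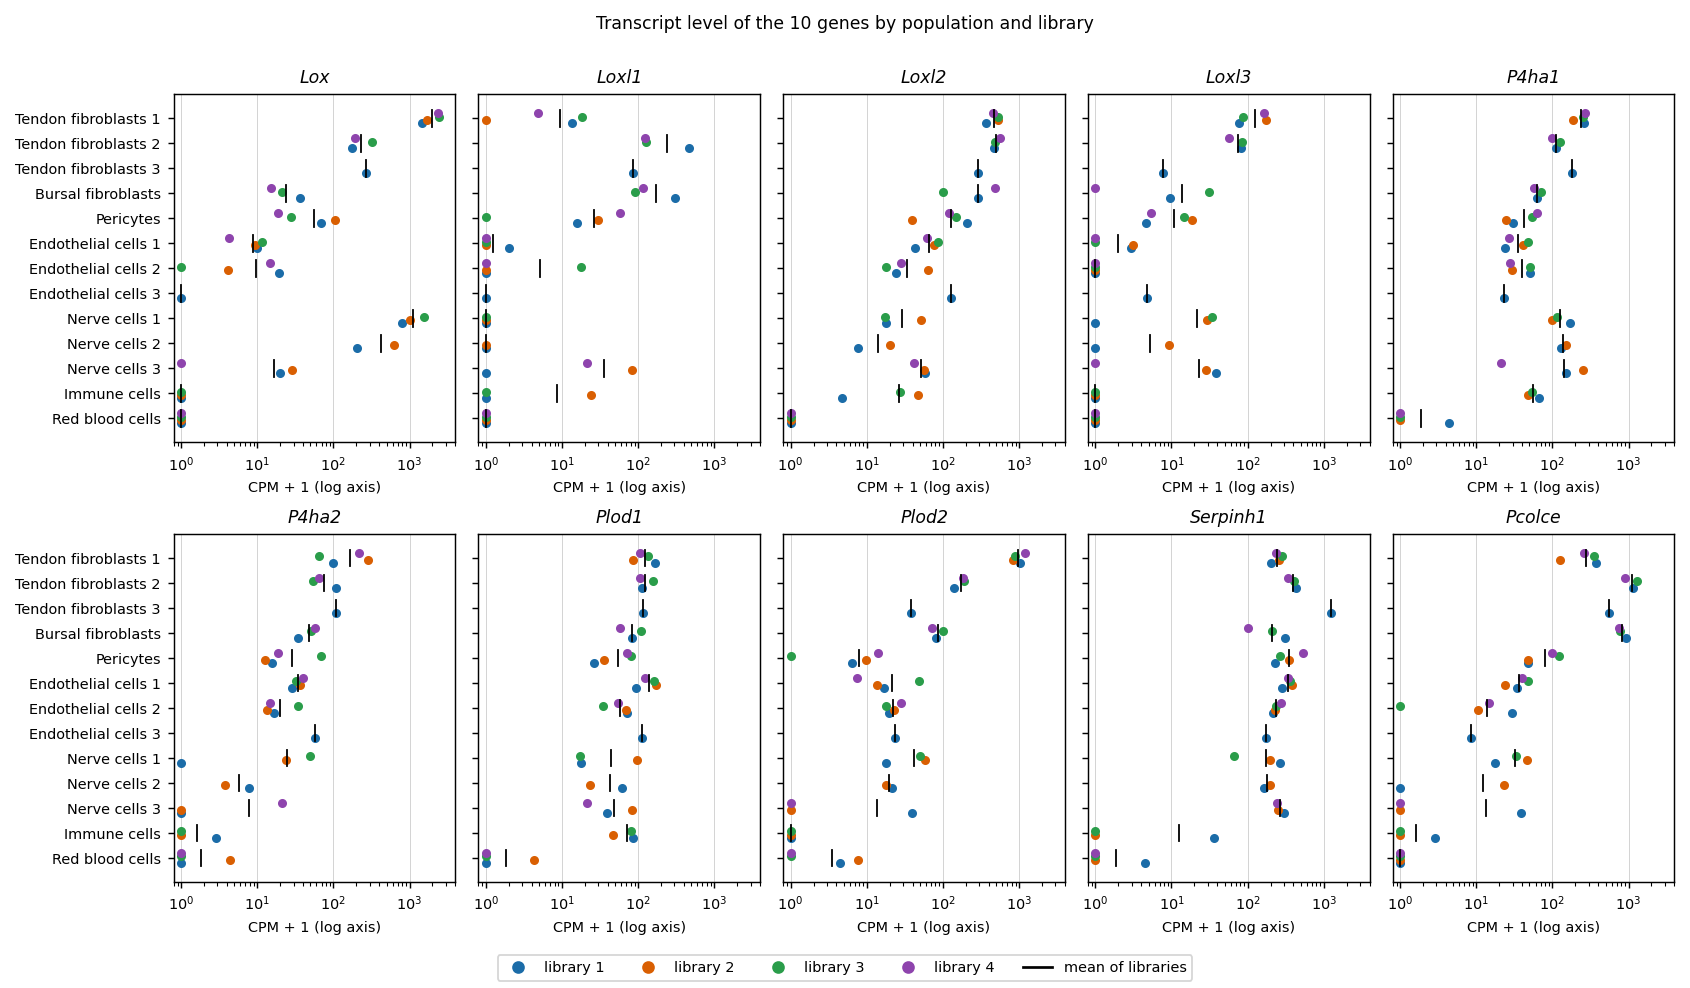
Level of each of the 10 genes (CPM + 1, log axis) in 13 populations; each point is the sum of 1 library's cells and the black bar is the mean of libraries. Lox and Plod2 are highest in tendon fibroblasts 1, Pcolce in tendon fibroblasts 2 and bursal fibroblasts, and Serpinh1 is spread over all populations but immune and red blood cells.

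Serpinh1, the collagen chaperone, was the most widespread of the 10, with UMIs in 754 of the 1191 cells. In tendon fibroblasts 3 of library 1 it reached 1256 CPM from 372 UMIs, with an exact 95% Poisson interval of 1131 to 1390 that covers counting error only. In the same library it had 199 CPM in tendon fibroblasts 1 (interval 166 to 237) and 435 in tendon fibroblasts 2 (390 to 484). The 3 intervals do not overlap, but a comparison in 1 library has no replicate check.

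Outside the tendon fibroblasts, Serpinh1 was at 343 ± 133 CPM in pericytes and at 339 ± 42.1 in endothelial cells 1 (n = 4 each), near the 392 ± 49.5 of tendon fibroblasts 2 (n = 3) and above the 245 ± 36.0 of tendon fibroblasts 1 (n = 4). In pericytes the 4 libraries gave 231, 344, 269 and 530 CPM, and in tendon fibroblasts 1 199, 258, 284 and 238. The ranges of these 2 populations overlap, whereas immune cells, at 35.2 CPM or less in each library, lay below all others but red blood cells. Nerve cells 3, at 264 ± 33.3 CPM (n = 3), and endothelial cells 2, at 237 ± 24.0 (n = 4), were in the same range.

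P4ha1 encodes a catalytic subunit of prolyl 4-hydroxylase. Its levels in tendon fibroblasts 1 were 256, 188, 251 and 264 CPM in libraries 1 to 4, and in tendon fibroblasts 2 110, 127 and 96.7 CPM in libraries 1, 3 and 4. The groups do not overlap. In nerve cells 1, 2 and 3 it reached 126 ± 36.5 (n = 3), 139 ± 15.8 (n = 2) and 140 ± 114 CPM (n = 3), beside 111 ± 15.0 in tendon fibroblasts 2 (n = 3).

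P4ha2, the gene of the alternative catalytic subunit, varied more between libraries. It was at 97.1, 281, 64.7 and 219 CPM in tendon fibroblasts 1, at 106, 52.3 and 64.4 in tendon fibroblasts 2 of libraries 1, 3 and 4, and at 33.8, 49.8 and 57.0 in bursal fibroblasts of the same 3 libraries. Libraries 2 and 4 were high and library 3 low in tendon fibroblasts 1, and the ranges of the 2 tendon fibroblast populations overlap.

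The 2 lysyl hydroxylase genes had unlike patterns. Plod2, whose product hydroxylates lysines in the telopeptides of fibrillar collagen, was at 1018, 836, 875 and 1189 CPM in tendon fibroblasts 1, at 141, 188 and 185 in tendon fibroblasts 2 of libraries 1, 3 and 4, and at 81.2, 99.6 and 71.2 in bursal fibroblasts of those libraries. These 3 populations were separated in every library, and the other populations lay at or below 56.8 CPM in each library. Plod1, which acts on lysines within the helix, was at 123 ± 35.4 CPM in tendon fibroblasts 1 and at 136 ± 35.2 in endothelial cells 1 (n = 4 each), and its ranges overlap there and in tendon fibroblasts 2, at 124 ± 27.7 (n = 3).

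Pcolce was highest in tendon fibroblasts 2, with 1132, 1283 and 910 CPM in libraries 1, 3 and 4, and in bursal fibroblasts, with 913, 777 and 748. These 2 ranges overlap by a small margin. In tendon fibroblasts 1 the 4 libraries gave 374, 125, 350 and 257 CPM, all below both, and pericytes followed at 78.0 ± 37.2 (n = 4). The Pcolce gene (chr5:137605103-137613784, minus strand) overlaps Fbxo24 on the same strand and an antisense gene, but those hold 10 and 34 UMIs against 3780 for Pcolce.

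Among the lysyl oxidases, Lox was the gene of tendon fibroblasts 1, with 1442, 1680, 2413 and 2398 CPM in the 4 libraries. Tendon fibroblasts 2 had 174, 322 and 193 CPM in libraries 1, 3 and 4, and bursal fibroblasts 35.5, 19.9 and 14.2. Nerve cells 1, at 800, 1028 and 1552 CPM in libraries 1, 2 and 3, came next after tendon fibroblasts 1, with a range that overlaps theirs.

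Loxl1, whose product is best known for crosslinking elastin, was lower in tendon fibroblasts 1 than in tendon fibroblasts 2 and bursal fibroblasts. Its levels were 464, 126 and 121 CPM in tendon fibroblasts 2 and 306, 89.7 and 114 in bursal fibroblasts of libraries 1, 3 and 4, and 12.7, 0, 17.5 and 3.78 in tendon fibroblasts 1. Library 1 was the high one in both Loxl1-rich populations, and tendon fibroblasts 1 lay below both in all libraries. No Loxl1 UMI was found in nerve cells 1 or 2.

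Loxl2 was called in none of the comparisons between fibroblast populations, with 473 ± 74.4 CPM in tendon fibroblasts 1 (n = 4), 502 ± 47.0 in tendon fibroblasts 2 and 289 ± 189 in bursal fibroblasts (n = 3 each). The bursal libraries, at 291, 99.6 and 477 CPM, differed widely, and without a filter on low counts Loxl2 was higher in tendon fibroblasts 1 than in bursal fibroblasts by 0.99 on the log2 scale (adjusted p = 0.0401). It was also the lysyl oxidase gene with the highest level in vessel cells, at 128 ± 69.6 CPM in pericytes and 65.5 ± 18.6 in endothelial cells 1 (n = 4 each). Loxl3 was the rarest of the 10 with 359 UMIs in all: 124 ± 50.2 CPM in tendon fibroblasts 1 (n = 4), 73.6 ± 15.0 in tendon fibroblasts 2 (n = 3), and at most 37.8 in any library elsewhere. Loxl3 (chr6:83034173-83052562, plus strand) overlaps Htra2 on the opposite strand, which holds 228 UMIs; whether strand was used in counting is not given in the sources used here.

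Where a gene's transcripts lay depended on these levels and on how many cells of each kind were captured. Plod2 had 89.5 ± 9.51% of its UMIs in tendon fibroblasts (mean of 4 libraries), Loxl3 84.6% and Lox 78.6 ± 31.0%, against 34.9% of all UMIs. Serpinh1 and Plod1 had 44.2% and 42.8% there. Endothelial cells held 36.2% of the Plod1 and 28.7% of the Serpinh1 UMIs, and 26.7% of all UMIs. In library 2, with few tendon fibroblasts, nerve cells held 61.2% of the Lox UMIs.

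**Figure D2:**
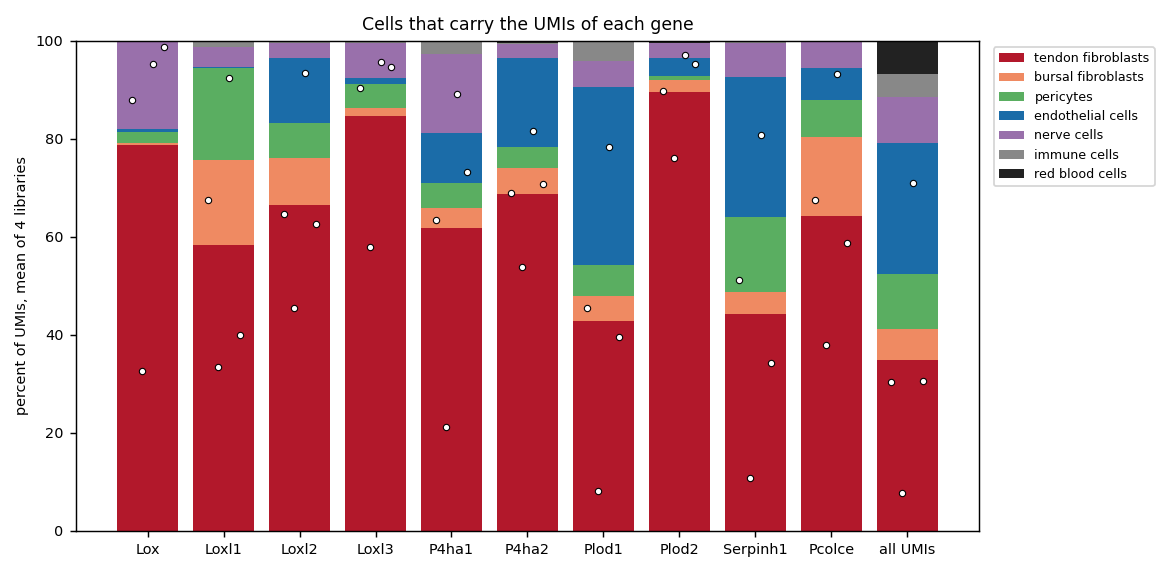
Percent of each gene's UMIs found in 7 cell classes, as the mean of 4 libraries (stacked bars), with all UMIs at the right; white points give the tendon fibroblast share in each library. Plod2, Loxl3 and Lox have the largest tendon fibroblast shares, and Plod1 and Serpinh1 the smallest, with a large endothelial part.

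The first comparison asked how the 10 genes stand in all tendon fibroblasts against all other cells of the same library. All 10 were higher in the summed tendon fibroblasts, where 29.4% of 9541 genes tested differed and 13.5% were higher. The sums do not speak for each population in them. In libraries 1 to 4, Loxl1 was at 12.7, 0, 17.5 and 3.78 CPM in tendon fibroblasts 1 alone. Other cells had 48.7, 6.74, 15.2 and 31.4. Serpinh1 was at 199, 258, 284 and 238 CPM in tendon fibroblasts 1, and other cells had 205, 233, 204 and 286. The smallest fitted changes were those of Plod1, 1.81-fold, and Serpinh1, 1.97-fold. The largest were those of Plod2, 30.4-fold, Loxl3, 21.6-fold, and Lox, 18.2-fold. Since the authors drew the populations from these counts, this comparison describes where the genes sit and is no independent check of the populations. It used edgeR's quasi-likelihood test with the library as a block and Benjamini-Hochberg adjustment over all genes tested; a gene was called at an adjusted p under 0.05.

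Plod2 was at 446, 620, 503 and 827 CPM in tendon fibroblasts of libraries 1 to 4 and at 22.3, 16.4, 38.0 and 17.8 CPM in the other cells, a log2 fold change of 4.93 ± 0.31 (SE, from the test statistic; adjusted p = 7.14e-06). Every library had the higher level in tendon fibroblasts and the groups do not overlap. Lox was at 657, 1251, 1283 and 1568 CPM against 39.3, 217, 156 and 9.43, a log2 fold change of 4.19 ± 0.66 (adjusted p = 0.00127), with the other cells highest in libraries 2 and 3. Nerve cells 1 were 23 of 246 and 10 of 256 cells there, against 15 of 580 and 1 of 109 in libraries 1 and 4. Nerve cells 2 were 24 and 3 cells there, against 19 and 0. In library 2, nerve cells 2 held 227 Lox UMIs and nerve cells 1 held 181, and in library 3 they held 2 and 95. What the comparison gives without nerve cells was not tested. Lox was 3.45 on that scale without library 4.

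Plod1 was at 133, 74.6, 145 and 112 CPM in tendon fibroblasts and at 69.8, 70.7, 98.8 and 75.5 in other cells, a log2 fold change of 0.86 ± 0.18 (adjusted p = 0.00607). It was higher in 4 of 4 libraries with overlapping ranges, and the adjusted p was 0.0506 without library 1. Serpinh1 was higher in 4 of 4 libraries by 0.98 ± 0.20 on the log2 scale (adjusted p = 0.00534). The log2 fold changes of the remaining 6 genes were 4.43 for Loxl3, 2.69 for Loxl2, 2.64 for P4ha2, 2.55 for Pcolce, 2.26 for P4ha1 and 2.18 for Loxl1, with adjusted p from 8.28e-06 to 6.32e-04. The median of the 10 log2 fold changes was 2.59, against -0.01 over all genes tested. With scaling by library size alone the median of all genes shifted by -0.28, and the share of calls that were higher went from 45.9% to 27.8%, while all 10 members stayed higher.

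Other genes of the pathway moved alongside. Of 15 further modifying enzymes and collagen chaperones, 13 could be tested, of which 10 were higher in tendon fibroblasts and none lower. Pcolce2, a second proteinase enhancer, was at 784 ± 83.5 CPM against 57.6 ± 42.4 (n = 4), and P3h3, of the prolyl 3-hydroxylase family, at 87.4 ± 5.09 against 17.5 ± 3.13. Both tested procollagen proteinases, Bmp1 and Adamts2, were higher, as were 10 of 11 genes of collagen export, among them Creb3l1, a transcription factor of secretory genes, at 149 ± 16.0 against 9.48 ± 6.26 CPM. Of 12 general chaperones of the endoplasmic reticulum 6 were higher and 6 were not called. Of 9 tested fibrillar and fibril-associated collagen genes 8 were higher.

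The second comparison set tendon fibroblasts 1 against tendon fibroblasts 2 in libraries 1, 3 and 4, where both had at least 5 cells. Lox, Plod2 and P4ha1 were higher in tendon fibroblasts 1, and Loxl1 and Pcolce were lower, with 5 of the 10 genes not called; 8.12% of 7043 genes tested differed, 4.33% higher and 3.79% lower. Lox was 10.2-fold higher (log2 3.35 ± 0.26, adjusted p = 8.56e-05), Plod2 6.79-fold (2.76 ± 0.25, adjusted p = 1.93e-04) and P4ha1 2.57-fold (1.36 ± 0.23, adjusted p = 0.00546). Each was higher in 3 of 3 libraries, with ranges that do not overlap.

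Loxl1 was 15-fold lower in tendon fibroblasts 1 (log2 -3.90 ± 0.42, adjusted p = 4.87e-04) and Pcolce 2.96-fold lower (-1.57 ± 0.21, adjusted p = 0.00165), again in 3 of 3 libraries without overlap. The size of the Loxl1 difference depended on libraries 1 and 3, with -3.15 without library 1 and -4.86 without library 3. All 5 calls were kept under every alternative that was run.

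The genes not called were Loxl2 at 0.05 ± 0.20, Loxl3 at 0.47 ± 0.31, P4ha2 at 0.64 ± 0.33, Plod1 at 0.33 ± 0.26 and Serpinh1 at -0.53 ± 0.22 on the log2 scale, with adjusted p of 0.954, 0.498, 0.347, 0.588 and 0.217. Serpinh1 was at 199, 284 and 238 CPM in tendon fibroblasts 1 and at 435, 403 and 338 in tendon fibroblasts 2; the ranges do not overlap, and the test did not call it. The median of the 10 was 0.40 against 0.01 over all genes tested. With scaling by library size alone the median of all genes shifted by -0.19 and the share of calls that were higher went from 53.3% to 38.99%; Loxl2 then had a log2 fold change of -0.16.

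**Figure D3:**
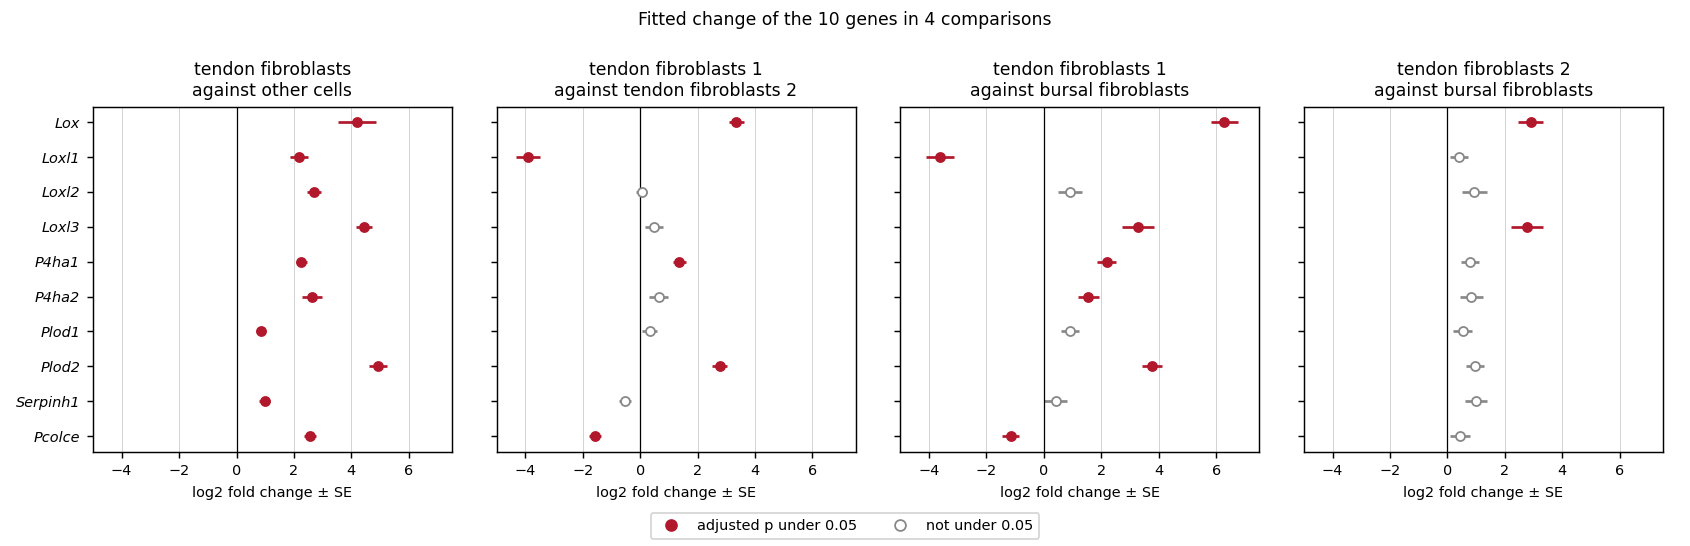
Fitted log2 fold change ± SE of the 10 genes in 4 comparisons; filled red points passed an adjusted p of 0.05 and open grey points did not. All 10 genes are to the right in tendon fibroblasts against other cells, while Lox, Plod2 and P4ha1 lie to the right and Loxl1 and Pcolce to the left in tendon fibroblasts 1 against tendon fibroblasts 2.

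Of 14 other tested modifying enzymes and chaperones, 3 were higher in tendon fibroblasts 1 than in tendon fibroblasts 2, none was lower and 11 were not called. The 3 were P3h2, a prolyl 3-hydroxylase, at 85.9 ± 13.4 against 3.91 ± 5.71 CPM, Colgalt2, a collagen galactosyltransferase, at 86.1 ± 56.4 against 5.98 ± 10.4, and Pcolce2 at 1265 ± 181 against 362 ± 392 (n = 3 each). Bmp1, the proteinase whose action the Pcolce product enhances, was lower, at 85.0 ± 13.3 against 312 ± 83.3 CPM. None of the 11 export genes and none of the 11 tested general chaperones was called by edgeR.

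Of 7 tested elastic fibre genes 4 were lower in tendon fibroblasts 1, among them Mfap5 at 10.2 ± 6.09 against 462 ± 551 CPM and Eln at 8.68 ± 3.05 against 118 ± 169, the same direction as the elastin-crosslinking gene Loxl1, and none was higher. Of 12 tested genes of the hypoxia response, in which P4ha1 and Plod2 are known to take part, 4 were higher in tendon fibroblasts 1 and none lower. Egln3, an oxygen-sensing prolyl hydroxylase, was at 130 ± 50.5 against 3.84 ± 6.66 CPM, Bnip3 at 199 ± 33.4 against 40.2 ± 14 and Slc2a1, a glucose transporter, at 35.9 ± 9.65 against 3.30 ± 3.21 (n = 3 each). Of 16 genes that respond to tissue dissociation, such as Fos and Jun, 5 were higher in tendon fibroblasts 1 and none lower. Their part in the result was not tested.

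The bursal fibroblasts, cells of the sac beside the tendon, were compared with tendon fibroblasts 1 and with tendon fibroblasts 2 in libraries 1, 3 and 4. They number 30, 5 and 5 cells there, with a median of 20284 UMIs per cell against 8824 and 10662 in the 2 tendon populations, and both comparisons share the bursal sums. The 4 bursal markers summed to 105119 to 196523 CPM in them and to at most 8869 in tendon fibroblasts 1 or 2, and the 9 tendon markers to 1809 to 8512 CPM in them and to at least 42654 in those tendon fibroblasts. In tendon fibroblasts 1, 5 members were higher than in bursal fibroblasts (Lox, Plod2, Loxl3, P4ha1 and P4ha2) and 2 were lower (Loxl1 and Pcolce); 15.0% of 5186 genes tested differed, 8.99% higher and 6.00% lower in tendon fibroblasts 1. In tendon fibroblasts 2, Lox and Loxl3 were higher than in bursal fibroblasts and the other 8 were not called; 6.45% of 4960 genes differed, 4.15% higher and 2.30% lower in tendon fibroblasts 2.

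In tendon fibroblasts 1 against bursal fibroblasts, Lox differed by 6.29 ± 0.47 on the log2 scale (adjusted p = 6.77e-07), Plod2 by 3.77 ± 0.35 (3.99e-06) and Loxl1 by -3.62 ± 0.50 (1.35e-04), and these 3 calls were kept under every alternative. The Lox difference was 4.63 once cells were thinned to equal depth (adjusted p = 0.0137) and 7.47 without library 1, and that of Loxl1 was -2.69 without library 1 and -4.55 without library 3. Loxl3 was higher by 3.29 ± 0.56 (adjusted p = 8.56e-04; 0.0558 without library 1; the difference was 3.90 without library 3), from 8 bursal UMIs. P4ha1 was higher by 2.19 ± 0.32 (adjusted p = 2.43e-04), and lost its call once cells were thinned to equal depth (2.52, adjusted p = 0.0932). P4ha2 was higher by 1.55 ± 0.37 (adjusted p = 0.0105; 0.117 with DESeq2, 0.0966 without library 1 and 0.0601 without library 4). Pcolce was lower by -1.15 ± 0.29 (adjusted p = 0.0131), a call that ended without library 1, 3 or 4 (0.0768, 0.0577 and 0.0852), with DESeq2 (0.0629) and with thinned cells (0.303). Dissociation genes were higher in tendon fibroblasts 1 for 11 of 16, and their part in these differences was not tested.

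In tendon fibroblasts 2 against bursal fibroblasts, Lox differed by 2.89 ± 0.45 (adjusted p = 0.00295) and Loxl3 by 2.77 ± 0.55 (adjusted p = 0.0122). With cells thinned to equal depth, Lox was at 1.25 with an adjusted p of 0.478, and it was at 4.05 without library 1. Loxl1, 0.39 ± 0.31, and Pcolce, 0.44 ± 0.35, were not called between these 2 populations (adjusted p = 0.618 and 0.606), and the other 6 genes lay between 0.52 and 0.99 without a call. Serpinh1, Plod2 and P4ha1 were higher in tendon fibroblasts 2 in 3 of 3 libraries with ranges that do not overlap.

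Against pericytes, the contractile cells around small vessels, 9 of the 10 genes were higher in tendon fibroblasts, where 32.5% of 5540 genes differed and 16.6% were higher. Plod2 stood at 446, 620, 503 and 827 CPM against 5.45, 8.75, 0 and 13.3, a 93.2-fold difference (log2 6.54 ± 0.33, adjusted p = 1.46e-07) from 9 pericyte UMIs. Serpinh1 was not called: it was at 491, 338, 350 and 337 CPM in tendon fibroblasts against 231, 344, 269 and 530 in pericytes, higher in 2 of 4 libraries (log2 0.56 ± 0.28, adjusted p = 0.157). Loxl1 was higher by 2.23 ± 0.63 (adjusted p = 0.0186), in 3 of 4 libraries. Without library 1 the difference was 0.95 (adjusted p = 0.262) and without library 4 it was 3.12. Of the 543 Loxl1 UMIs of tendon fibroblasts, 487 lay in tendon fibroblasts 2. Tendon fibroblasts 1 alone had 12.7, 0, 17.5 and 3.78 CPM in libraries 1 to 4, and pericytes 14.5, 29.2, 0 and 57.4. The median of the 10 genes was 2.89 against -0.01 over all genes; scaling by library size alone shifted the latter by -0.36 and moved the share of calls that were higher from 51.2% to 29.8%. Of the further modifying enzymes, 9 of 12 were higher and none lower.

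Among vessel cells, Plod1 was higher in endothelial cells 1 than in pericytes and in endothelial cells 2. It was at 93.0, 170, 158 and 122 CPM in endothelial cells 1, at 25.4, 35.0, 80.7 and 70.7 in pericytes and at 70.7, 69.1, 33.6 and 54.0 in endothelial cells 2. Endothelial cells 1 were higher in each library, with no overlap in either comparison. In pericytes against endothelial cells 1, where 34.2% of 5493 genes differed, 16.6% higher and 17.6% lower, Plod1 was lower by -1.42 ± 0.28 on the log2 scale (adjusted p = 0.00269), and the call was kept under every alternative. Pcolce was higher in pericytes by 1.09 ± 0.27 (adjusted p = 0.0101; 0.0562 without library 4). Loxl2, P4ha1, P4ha2 and Serpinh1 were not called; Loxl2, at 1.12 ± 0.44 (adjusted p = 0.0766), was called without library 2 at 1.68 (0.00546), without the library block at 1.20 (0.0304) and without a filter on low counts at 1.02 (0.0013), and was at 0.34 without library 1 (0.606). Lox, Loxl1, Loxl3 and Plod2 had too few counts to be tested. Of 16 dissociation genes 8 were higher in pericytes and none lower, and their part was not tested.

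Between endothelial cells 1 and endothelial cells 2, where 18.2% of 5126 genes differed, 7.74% higher and 10.5% lower, Plod1 was higher in endothelial cells 1 by 0.93 ± 0.27 (adjusted p = 0.0228), in 4 of 4 libraries. The adjusted p was 0.214 without library 2, 0.0722 without library 3 and 0.0827 with DESeq2. The 2 vessel comparisons share the sums of endothelial cells 1. Serpinh1, at 281, 378, 359 and 338 CPM against 215, 226, 235 and 270, was higher in 4 of 4 libraries without overlap but was not called (log2 0.45 ± 0.18, adjusted p = 0.0928; 0.0438 with scaling by library size alone). Loxl2 and P4ha1, the other 2 tested of the 10, were not called. Of 16 dissociation genes 10 were lower and 1 higher in endothelial cells 1, and all 3 tested hemoglobin genes were higher there; their part was not tested.

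The level of Lox in nerve cells was described further because it was the highest outside tendon fibroblasts; it was chosen after its values were seen and no test was made. In nerve cells 1 of libraries 1, 2 and 3, Lox reached 55.5, 61.2 and 64.3% of its level in tendon fibroblasts 1 of the same library. The summed level of the 9 tendon fibroblast markers reached 2.02, 1.46 and 2.46%, and Plod2 1.64, 6.79 and 5.60%. Tnmd, Scx, Mkx and Chad, 4 of those markers, had 0 UMIs in nerve cells 1, beside 324 UMIs of Lox. The other markers were present there, Col1a1 with 327 UMIs, Col1a2 with 323, Comp with 9, Thbs4 with 3 and Fmod with 2. The part of free RNA in these counts was not tested. The markers of nerve cells themselves summed to 75759, 71459 and 87639 CPM there, against at most 180 in any library's tendon fibroblasts 1.

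The Lox transcripts of nerve cells were not spread evenly over cells. In nerve cells 1, 9 of 15, 19 of 23 and 9 of 10 cells in libraries 1, 2 and 3 had a UMI, and the cell with the most held 31.3, 16.6 and 52.6% of them. Tendon fibroblasts 1 were uneven in part as well. Their top cell held 6.29, 35.3, 5.03 and 22.4% of the Lox UMIs in libraries 1 to 4 (60, 9, 83 and 21 cells). In nerve cells 2, Lox was at 202 CPM in library 1 and 631 in library 2, and a single cell held 80% of the 30 UMIs in library 1. Nerve cells 3 had 2 Lox UMIs in all. The levels of the 3 nerve populations are thus far apart for Lox, while for P4ha1 the means are 126, 139 and 140 CPM. The last of these means is uncertain. Nerve cells 3 had 151, 248 and 20.2 CPM of P4ha1 in libraries 1, 2 and 4, from 8, 9 and 1 UMIs.

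**Figure D4:**
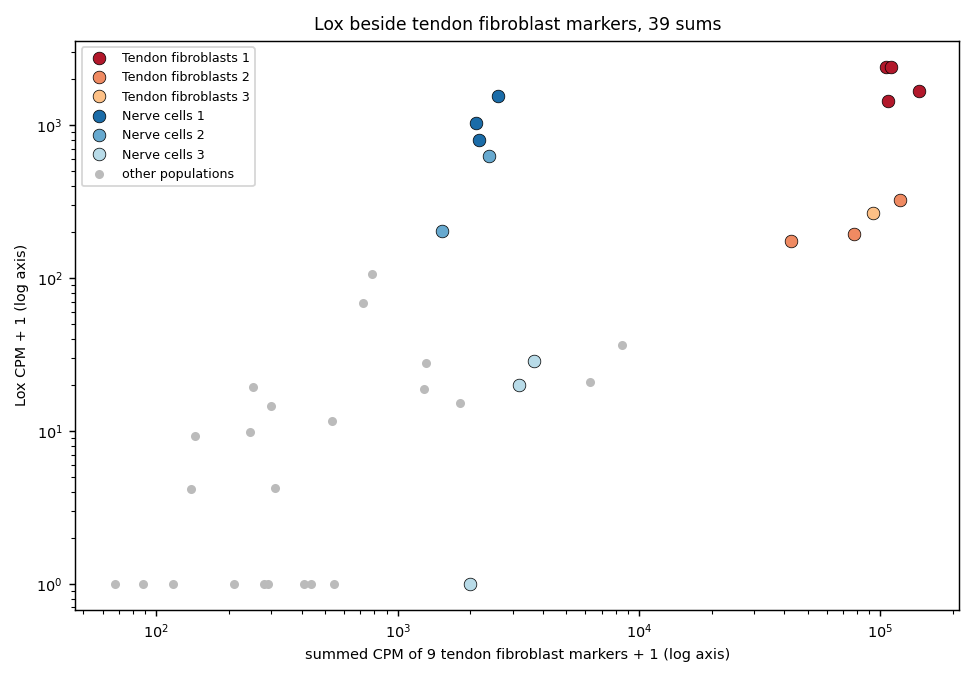
Lox (CPM + 1) against the summed level of 9 tendon fibroblast markers (CPM + 1), both on log axes, for 39 sums of 1 library and 1 population. Nerve cells 1 and 2 stand near the Lox level of tendon fibroblasts while their tendon markers lie far to the left of them.

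Detection per cell gave a similar picture at equal depth. Each cell was thinned to 2400 UMIs, which left out 114 shallower cells, and the share with at least 1 UMI was counted over cells pooled from the libraries; intervals are exact 95% binomial and cover counting error only. Lox was found in 87.0% of tendon fibroblasts 1 (140 of 161 cells, 80.8 to 91.7%), 28.4% of tendon fibroblasts 2 (21.3 to 36.4%) and 68.1% of nerve cells 1 (52.9 to 80.9%); unthinned, the shares were 91.9, 59.6 and 75.5%. Plod2 was found in 85.7% of tendon fibroblasts 1 and 27.7% of tendon fibroblasts 2 (unthinned 96.0 and 56.4%), and Serpinh1 in 91.3% of tendon fibroblasts 3 (unthinned 100%).

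Pcolce was found in 83.8% of tendon fibroblasts 2, 75.7% of bursal fibroblasts and 46.0% of tendon fibroblasts 1 (unthinned 95.5, 100 and 74.0%), and Loxl1 in 33.8, 40.5 and 3.73% (unthinned 66.7, 75.0 and 9.83%). Free RNA can place UMIs in cells that do not express a gene. Red blood cells gave 0 of 106 thinned cells for every member, which allows a share of up to 2.83% (3 of 106; exact upper limit 3.42%), but of their 733208 UMIs only 50184 were not hemoglobin, so their room for other transcripts is small. Immune cells, with a median of 7108.5 UMIs before thinning against 8824 in tendon fibroblasts 1, leave more room for other transcripts. In them Lox and Plod2 were in 0 of 87, which allows up to 3.45% (3 of 87, exact upper limit 4.15%). Pcolce was in 1.15%, Serpinh1 in 6.90%, P4ha1 in 10.3% and Plod1 in 21.8% of immune cells. The Plod1 shares of 24.2% in tendon fibroblasts 1 and 20.5% in endothelial cells 1 (unthinned 63.0 and 57.9%, against 39.1% in immune cells) are close to the share in immune cells at this depth. That immune share lies above those of pericytes (6.73%) and nerve cells 2 (4.44%), so it sets no floor for Plod1. How much of any of these shares is free RNA was not tested.

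**Figure D5:**
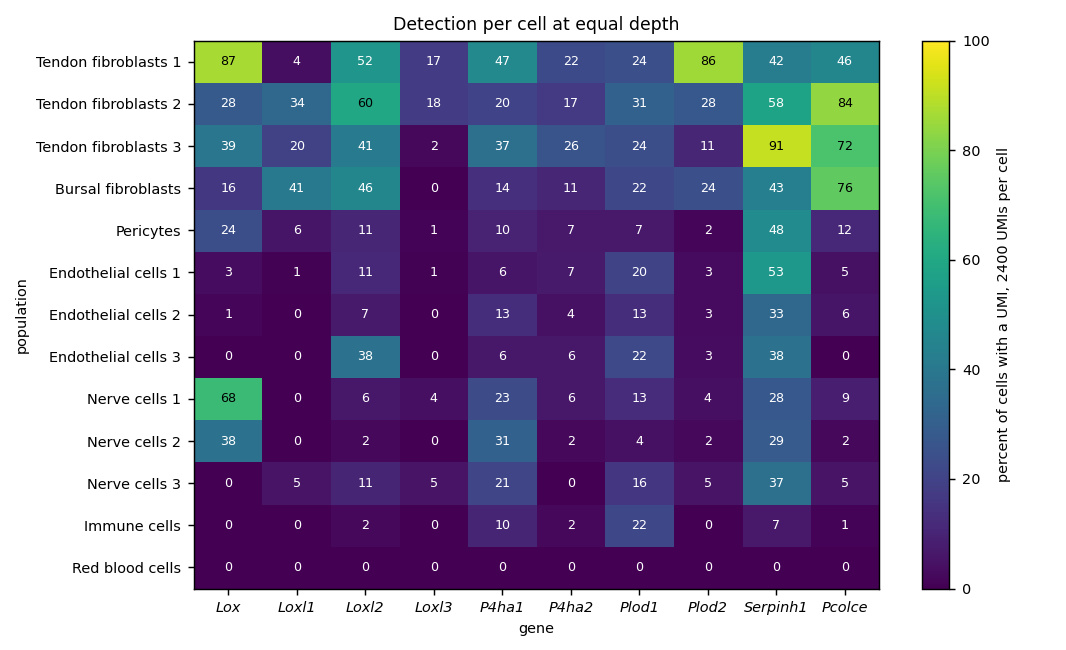
Percent of cells with at least 1 UMI of each gene after thinning to 2400 UMIs per cell, by population, with the rounded percent printed in each field. Lox and Plod2 reach 87 and 86% in tendon fibroblasts 1, Serpinh1 91% in tendon fibroblasts 3, and red blood cells are at 0 throughout.

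Thinned tendon fibroblasts 1 held UMIs of 4.28 of the 10 genes per cell on average, tendon fibroblasts 2 3.78, tendon fibroblasts 3 3.63, bursal fibroblasts 2.92 and nerve cells 1 1.62. Pericytes held 1.26, endothelial cells 1 1.10 and immune cells 0.448. Every cell of tendon fibroblasts 1 and 3 had a UMI of at least 1 of the 10 genes at this depth, and 60.9% of immune cells had none.

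Set beside fibrillar and fibril-associated collagens, the order of the populations was different. Tendon fibroblasts 1 had 53.0 ± 13.5 UMIs of the 10 genes per 1000 UMIs of 11 collagen genes, fibrillar or associated with fibrils (n = 4), tendon fibroblasts 2 34.2 ± 14.7 (n = 3) and tendon fibroblasts 3 21.8. Bursal fibroblasts had 328 ± 280 and nerve cells 1 403 ± 89.4 (n = 3 each), pericytes 384 ± 147 and endothelial cells 1 2255 ± 1681 (n = 4 each). Library 4 of the bursal fibroblasts, with 652, and library 2 of endothelial cells 1, with 4773, were far above the others; the means without them were 167 and 1415. Those collagens were at 89972 ± 17059 CPM in tendon fibroblasts 1 and at 384 ± 173 CPM in endothelial cells 1 (n = 4 each), so that the ratio is low where their transcripts are most abundant. Immune cells had 278 ± 166 CPM of them (n = 3) and red blood cells 190 ± 158 (n = 4). The endothelial ratio thus rests on a collagen level not far above that of these cells. Basement membrane collagens were not counted in the ratio.

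The genes whose levels followed each member most closely across the 39 sums were found by Pearson's r of log2(CPM + 10) over genes with a mean of at least 20 CPM; the sums share libraries and populations, so r is a description without a test. Lox was most like Vit (0.89) and Spp1 (0.83), and Plod2 like Cilp (0.89), Cilp2 (0.88) and Pcolce2 (0.87). Loxl1 was most like Islr (0.89), Dpt (0.85) and Cd248 (0.85), and Pcolce like Medag (0.93), Ccdc80 (0.93) and Ddr2 (0.92). Loxl3 was most like the collagen genes Col1a1 (0.86) and Col1a2 (0.84), with Thbs4 (0.84) between them.

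Serpinh1 was most like Nfib (0.92), Cavin3 (0.91) and Nedd4 (0.91), Plod1 like Cr1l (0.90) and Erp44 (0.86), P4ha1 like Selenos (0.89), and P4ha2 like Fkbp7 (0.85). Loxl2 followed Pkd2 (0.87), Pkd1 (0.86) and then the member Pcolce (0.85). Among the 10 genes, other close pairs were Loxl3 and Plod2 (0.82), P4ha2 and Loxl2 (0.80) and P4ha2 and Plod2 (0.76), while Lox and Loxl1 were at 0.11.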

How the data were processed

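Single-cell RNA libraries were made with the 10x Genomics Chromium 3′ kit (version 3), per the labels' protocols. The submitters' processing notes name Cell Ranger, Seurat 2.3.4, R 3.5.2 and genome build mm10, with no role or order; annotation, strand setting and doublet treatment are not given in the sources used here, and no doublet caller was run. The authors deposited raw UMI counts per gene and cell, which all results use, and each cell's library and population. Their deposited normalized values are natural log values of 1 + 10000 × the gene's share of a cell's counts (largest difference 5.0e-10) and served only for that check. Of 15750 gene entries, 4 under a repeated name (0.0186% of UMIs) were left out.

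Counts were summed per library and population (at least 5 cells) and tested with edgeR 4.0.16 (quasi-likelihood, TMM, filterByExpr, the library as a block, adjustment over all genes tested) in R 4.3.3; the procedure was tested on simulated data. SE is the log2 fold change divided by the root of the F statistic. The sums are paired because both sides come from the same library; deviations of paired sums correlated between -0.03 and 0.17. Thinning used 2400 UMIs per cell. Alternatives were DESeq2 1.42.0, library-size scaling, no count filter, thinned cells, no block, a minimum of 10 cells, each library left out and, for the comparisons with all tendon fibroblasts, the sums without tendon fibroblasts 3 and, against other cells, without red blood cells. Shares of UMIs were also taken with UMIs pooled over libraries. Gene locations and names are from GENCODE on GRCm38, the build of mm10. Named are all 10 members, up to 3 genes most like each, and of each other list at most 3 called genes per direction, those of greatest change that moved alike in every library. The members and lists were chosen with earlier results of these data known.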

Additional observations from a re-analysis of the deposited data

Results flagged for a closer look

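In 6 of 50 groups of 4 libraries, 1 library lay far from the others by Dixon's criterion. Chance alone meets it in about 1 of 20 groups of normally distributed values. Groups with few UMIs are not of that kind, so 6 of 50 cannot be set against that rate. Lox had 32.63% of its UMIs in the tendon fibroblasts of library 2, the library with 14 such cells, against 88.0 to 98.7% in the others, and Loxl3 57.89% there. P4ha2 was highest in library 3 in pericytes, at 67.22 CPM from 5 UMIs, and in endothelial cells 2, at 33.64 CPM from 2 UMIs. Loxl1 had 1 UMI in endothelial cells 1 of library 1 (0.989 CPM) and 1 in endothelial cells 2 of library 3 (16.82 CPM), with none in the other 3 libraries of either.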

How the results depend on the processing

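Of 558 values recomputed for the members' 60 tests, 527 kept direction and side of the threshold, 17 lost a call, 5 gained one and 9, none of them called, changed sign; 27 of 36 calls were kept in every alternative run. The sign changes were Loxl2 in tendon fibroblasts 1 against 2 (-0.1625 with library-size scaling; -0.0413 without library 3 to 0.0869 without library 1), Loxl3 there (-0.0476 with thinned cells) and Plod1 there (-0.0006 with thinned cells; -0.0122 without library 1 to 0.6523 without library 3), and Serpinh1 in pericytes against endothelial cells 1 (-0.0163 with library-size scaling, -0.0029 without a filter and -0.0857 with thinned cells; -0.1326 without library 4 to 0.2092 without library 3).

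Counts of genes called moved by over 1.5 times as follows, where thinning leaves fewer UMIs. Tendon fibroblasts against other cells had 1237 with thinned cells (2802 as reported) and against pericytes 474 (1800). Tendon fibroblasts 1 against 2 (572) had 371 with DESeq2, 1073 without a filter and 235 with thinned cells. Against bursal fibroblasts, tendon fibroblasts 1 (777) had 503, 1216 and 95, and tendon fibroblasts 2 (320) had 727 without a filter and 122 with thinned cells. Pericytes against endothelial cells 1 (1877) had 2918 without a filter and 494 with thinned cells, and endothelial cells 1 against 2 (933) had 570 with DESeq2 and 287 with thinned cells. Apart from thinning, the cause was not tested.

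Leaving out a library gave ranges of 1930 to 2760, 362 to 529, 380 to 892, 149 to 399, 1207 to 1886, 1310 to 2238 and 484 to 997 in the order of the report. Leaving out library 1 gave the lowest value in the 3 comparisons between fibroblast populations, and in the last comparison 616 were called without library 1 and 484 without library 2. Without the replicate block 2889, 547, 817, 262, 2016, 1993 and 880 genes were called, and among the members this changed only the call of Loxl2 in pericytes against endothelial cells 1. A minimum of 10 cells was not run for bursal fibroblasts, which reach it only in library 1. Depth limits Loxl1 and Loxl3 outside fibroblasts, where most sums hold few or no UMIs.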
